A study of Homo sapiens with 5 samples.

Results

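The CHD genes encode chromodomain helicase DNA-binding proteins, and 9 of the 9 genes CHD1 to CHD9 had a named probe set on the array, out of 14812 named genes in all. Members were taken by name, with 1 probe set each. CHD7 was chosen by its difference between CDH26 and control clones in these same values, so the differences of all CHD genes between the groups are given below as descriptions, without a test.

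RNA came from clones of TE7, an established human esophageal carcinoma line, each grown out from a single cell. The 2 control clones carried pMIRNA1-puro-control and the 3 CDH26 clones carried pMIRNA1-puro-CDH26, which expresses the cadherin CDH26; all had been transduced and were kept at 1.8 mM calcium for 24 h. Every clone was measured on 1 Affymetrix Gene 2.0 ST array. Nothing in the labels gives the untransduced line, so transduction is common to all 5 clones. Because every replicate is a clone of its own, variation from clone to clone and array error cannot be told apart, and the number of arrays limits the precision.

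CHD proteins use ATP to slide, space or evict nucleosomes, and they carry tandem chromodomains in front of a SNF2-type helicase motor. CHD1 and CHD2 are linked to transcribed genes. CHD3, CHD4 and CHD5 carry PHD fingers and serve as the motor of the nucleosome remodelling and deacetylase complex, NuRD. CHD6, CHD7, CHD8 and CHD9 form a further subfamily with BRK domains. CHD7 binds mainly at enhancers, and its loss of function causes CHARGE syndrome, a disorder of neural crest and sensory organ development.

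The deposited values are logarithms, read here as log2, of each probe set against the average of the 2 control clones. They keep differences between clones and no expression level, so the CHD genes cannot be ranked by abundance and the presence of TE7 marker transcripts cannot be checked. Because of that centring the control clones always hold equal and opposite values. CDH26 itself, the gene on the construct, was at 2.87, 3.01 and 2.63 with CDH26 and at 0.0067 and −0.0067 in the controls. All CDH26 clones were far above both controls, yet at a difference of 2.84 ± 0.13 (SE) the adjusted p from limma was 0.25. Here and below, values are given in clone order, CDH26 clones 1 to 3 first and then control clones 1 and 2.

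CHD7 was the one CHD gene in which all CDH26 clones lay above both control clones. Its values were 0.85, 1.06 and 1.03 with CDH26, and 0.086 and −0.086 in the controls. The 3 CDH26 clones had a mean of 0.98 ± 0.11 (SD, n = 3), and their range of 0.21 was larger than in 69.9% of all genes. That range was small beside the gap of 0.77 between the lowest of these clones and the higher control. The difference between groups was 0.98 ± 0.105 log2 units (SE from the spread within groups), a 1.98-fold higher value with CDH26. Among all named genes, 75 had a larger positive difference and 97 a larger difference in either direction. No single clone carried the value, which was between 0.90 and 1.07 with each clone left out in turn.

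**Figure D1:**
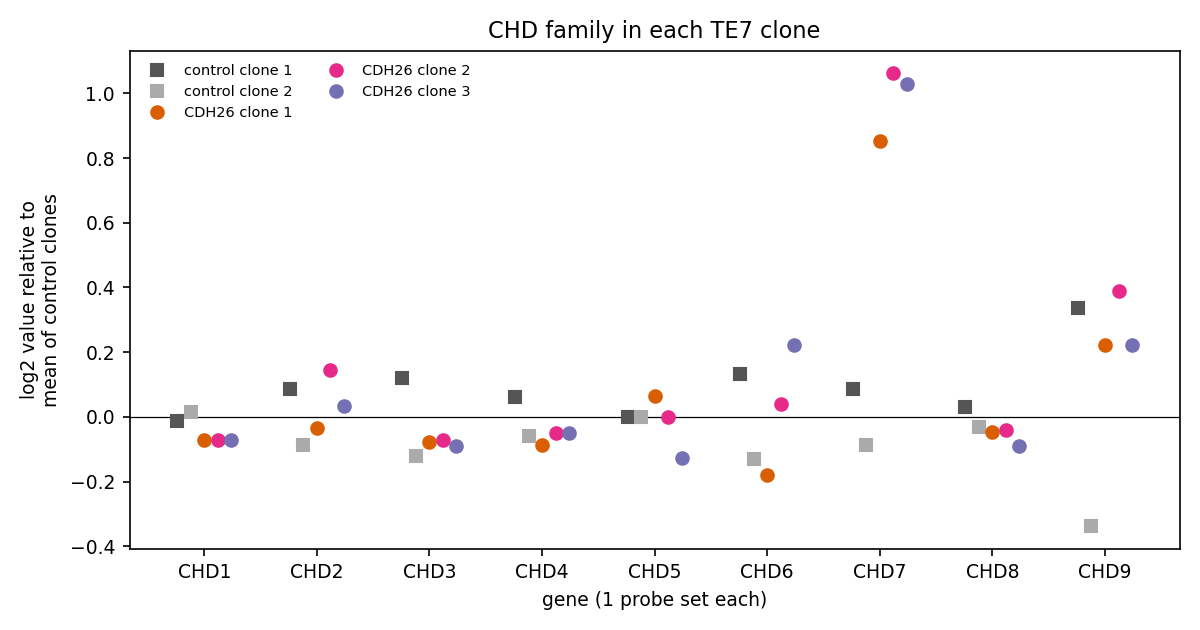
Log2 value of each CHD gene against the control average (vertical axis), with 1 square per control clone and 1 circle per CDH26 clone. CHD7 has its 3 CDH26 clones between 0.85 and 1.06, apart from both controls, while the other CHD genes lie between −0.34 and 0.39 in every clone.

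Of the remaining members, 0 lay wholly above the controls and 2, CHD1 and CHD8, lay wholly below. Over all named genes, CDH26 clones were wholly above the controls in 8.98% and wholly below in 9.93%. In 6 of the 9 members the groups overlapped. A different value on each array was found in 5 of the 9 members and in 46.3% of all genes, so ties bear on these shares. The 8 members other than CHD7 had a median difference of −0.039, against 0.00 for all genes, and 7 of the 8 were within 0.1 log2 units of 0. After CHD7, CHD9 had the next largest difference, at 0.28.

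Within the CHD1 and CHD2 subfamily, CHD1, which reads methylated histone H3 at transcribed genes, had the same deposited value of −0.072 in all 3 CDH26 clones and −0.014 and 0.014 in the controls. The clones were separated by construct, but by a small step. Its difference was −0.072 ± 0.010 (SE), and a tie of all CDH26 clones was found in 7.5% of all genes (values within 1e-05 counted as equal). The SE of CHD1 therefore rests on the control clones alone. CHD2 was at −0.036, 0.14 and 0.033 with CDH26 and at 0.086 and −0.086 in the controls. The CHD2 clones were intermixed, with a difference of 0.047 ± 0.093 that was 0.13 leaving out control clone 1 and −0.039 leaving out control clone 2.

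Among the NuRD motors, CHD3 was at −0.078, −0.073 and −0.089 with CDH26 and at 0.12 and −0.12 in the controls. The CDH26 clones were nearly identical and lay between the controls. The CHD3 difference of −0.080 ± 0.091 (SE) therefore depended on which control was used, at 0.042 without control clone 1 and −0.20 without control clone 2. CHD4, the main NuRD motor of most cell types, was at −0.086, −0.049 and −0.049 with CDH26 and at 0.061 and −0.061 in the controls. CDH26 clone 1 alone lay below both controls, and the CHD4 difference was −0.061 ± 0.048, or −0.12 without control clone 2 and −0.00050 without control clone 1. CHD5, known mainly from neural tissue and testis and as a tumour suppressor, was at 0.065, 0.00 and −0.13 with CDH26 and at 0.00 in both controls. Its CDH26 clones lay on either side of the controls, with a difference of −0.020 ± 0.073, or 0.033 without CDH26 clone 3.

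CHD7's own subfamily did not share its pattern. CHD6 was at −0.18, 0.040 and 0.22 with CDH26 and at 0.13 and −0.13 in the controls. CHD6 had the widest range of the family among CDH26 clones, 0.40, and a difference of 0.027 ± 0.18 (SE), which was −0.10 without control clone 2 and −0.070 without CDH26 clone 3. CHD8, a binding partner of beta-catenin and CHD7, was at −0.045, −0.042 and −0.089 with CDH26 and at 0.031 and −0.031 in the controls. All CDH26 clones lay below both controls in CHD8 by a narrow margin. The CHD8 difference was −0.059 ± 0.030, with −0.028 when control clone 1 was left out and −0.090 when control clone 2 was.

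CHD9 was at 0.22, 0.39 and 0.22 with CDH26 and at 0.34 and −0.34 in the controls. Control clone 2 stood apart from all other clones in CHD9, and control clone 1 lay among the CDH26 clones. The gap of 0.68 between the controls was larger than in 96.8% of all genes. The CHD9 difference of 0.28 ± 0.26 (SE) was 0.62 once control clone 1 was left out and −0.060 once control clone 2 was.

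**Figure D2:**
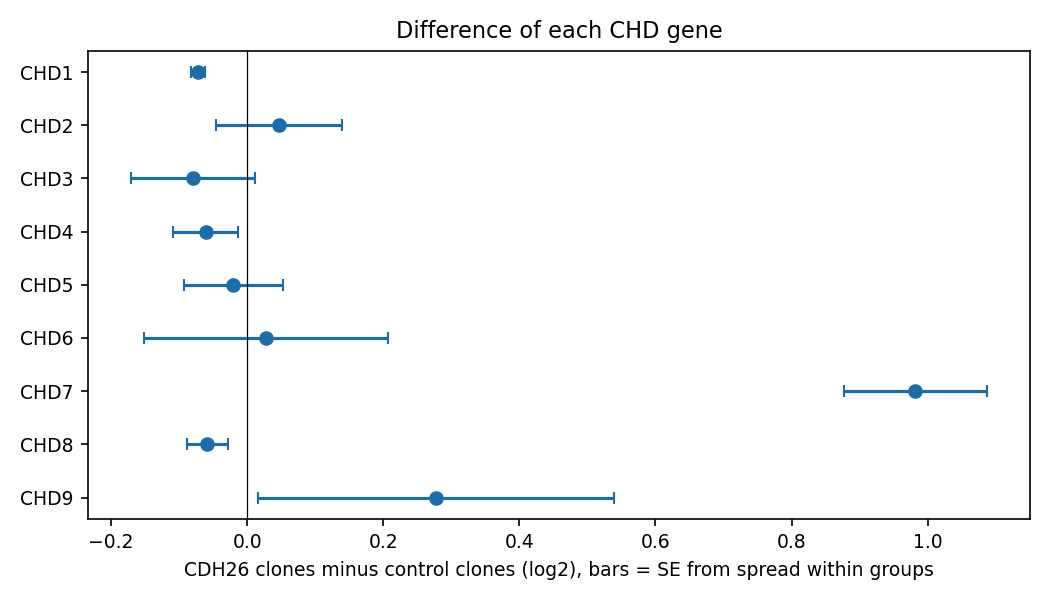
Difference between CDH26 and control clones in log2 units (horizontal axis) for each CHD gene, with bars for the SE from the spread within groups (2 control and 3 CDH26 clones). CHD7 stands at 0.98, CHD9 at 0.28 with a wide bar, and the others within 0.1 of 0.

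The measured genes nearest to CHD7 on chromosome 8 were read beside it, and genes without a named probe set are missing from this order. Of the 5 nearest measured genes on each side, in the gene order of the GRCh38.p14 annotation, 0 of 10 had all CDH26 clones above both controls, 2 had them below and 8 overlapped, against 8.98% above and 9.93% below over all genes. For 10 genes a count of 0 above is close to the share of 8.98%, so it does not set these genes apart. Their median difference was −0.065 log2 units.

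On one side CA8, a carbonic anhydrase-related protein, was at 0.038 in all CDH26 clones and in control clone 2 and at −0.038 in control clone 1. TOX, an HMG-box factor, was at −1.44, −0.58 and 0.080 with CDH26 and at 0.38 and −0.38 in the controls. TOX thus varied more among CDH26 clones than CHD7 did, with CDH26 clone 1 lowest. On the other side CLVS1, which encodes the lipid-binding protein clavesin, was listed at 0.00 in every clone. The long noncoding RNA LOC100130298 was at 0.055, 0.055 and −0.063 with CDH26 and at −0.055 and 0.055 in the controls. The genes that lay wholly below, named after their values were seen, were NSMAF at −0.25 ± 0.11 (SE) and ASPH at −0.16 ± 0.079.

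**Figure D3:**
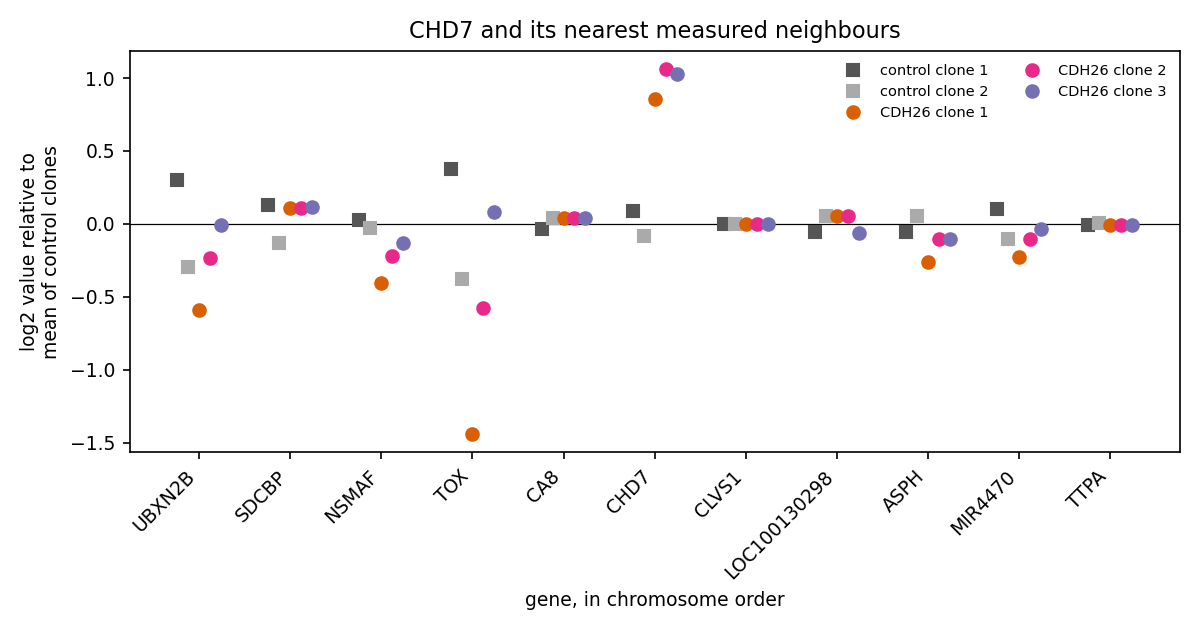
Log2 value against the control average (vertical axis) for CHD7 and the 5 nearest measured genes on each side, in chromosome order. CHD7 alone has all CDH26 circles above both control squares; TOX reaches −1.44 in CDH26 clone 1.

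The likeness of other genes to CHD7 was measured as the root mean square difference of their log2 values over the 5 clones, among 14811 genes. The 6 closest genes were chosen for this and get no test. NBEA, which encodes the vesicle-trafficking protein neurobeachin, was closest at 0.10, with 0.86, 1.01 and 0.81 with CDH26 and 0.11 and −0.11 in the controls. WDR54, a WD-repeat protein, followed at 0.14 and NDRG1, a stress-induced gene, at 0.15. C2orf68 was at 0.16 and AQP3, an aquaglyceroporin of epithelia, at 0.17. In all 6 the CDH26 clones lay above both controls, as the choice makes likely. A second order used Pearson correlation, among the 2094 genes with a range over the clones of at least 0.5 times that of CHD7, which include all 6. Its first 6 genes shared 2 with the order by distance, NBEA and NDRG1. The closest other CHD gene was CHD9, at 0.57 and rank 859.

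The sixth gene was MIR27B, at a distance of 0.17, with 0.62, 0.87 and 0.95 with CDH26 and 0.24 and −0.24 in the controls. It shared with CHD7 its lowest CDH26 value in clone 1. The probe set belongs to the miRNA gene and does not tell its mature arms apart. They are shown, as RefSeq gives them on GRCh38.p14, because MIR27B was the one miRNA gene among the 6; capitals mark the seed, bases 2 to 8.
hsa-miR-27b-5p: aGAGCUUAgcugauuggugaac
hsa-miR-27b-3p: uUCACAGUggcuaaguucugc
The 5p arm lies at chr9:95085463-95085484 and the 3p arm at chr9:95085505-95085525, both on the plus strand.

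**Figure D4:**
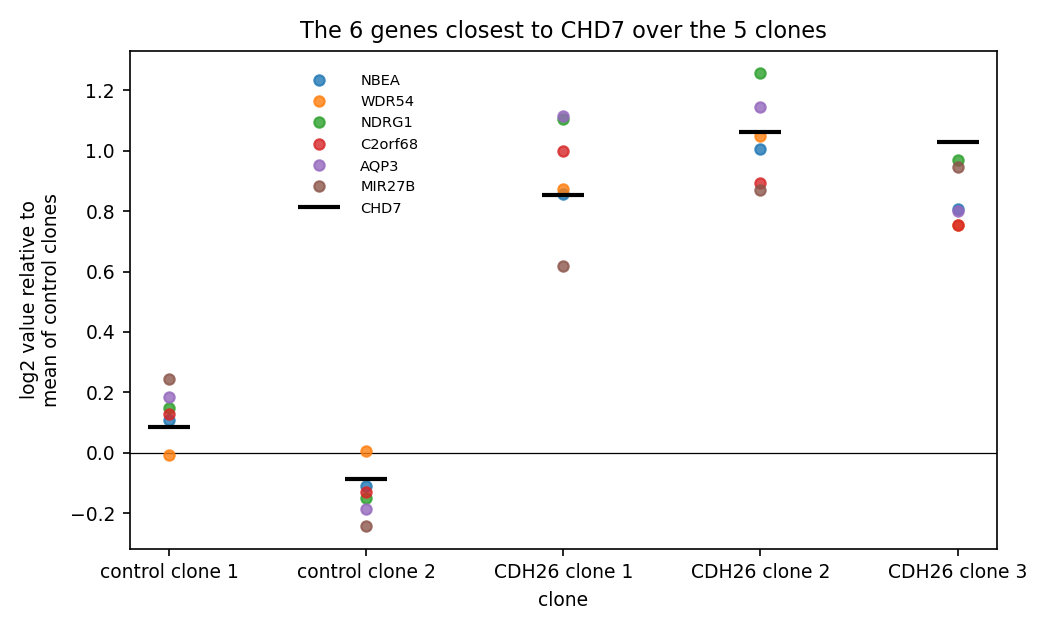
Log2 value against the control average (vertical axis) in each clone for CHD7 (black bars) and the 6 genes with the smallest root mean square difference from it (dots). The genes lie between 0.62 and 1.26 in the CDH26 clones and between −0.24 and 0.24 in the controls.

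Partners and relatives of the CHD proteins were compared next, to see whether other chromatin remodellers differed between the groups. Of 138 genes in 7 lists, 91 were measured, and the other listed genes were not analysed here. With limma and Benjamini-Hochberg adjustment over all 14812 genes, 0 of the 91 passed an adjusted p of 0.05, and over all genes 0.00% did. At an unadjusted p under 0.05, 4 were higher and 7 lower in CDH26 clones, and 7.51% of all genes had such a p, 520 higher and 593 lower. In 10 of the 91 (11.0%) all CDH26 clones lay above both controls and in 16 (17.6%) below, against 8.98% and 9.93% of all genes, shares that also serve for the counts of each list below. Ties limit this comparison. A different value on each array was found in 57 of the 91 list genes and in 46.3% of all genes. The 377 genes with the same value on all arrays cannot lie wholly above or below. The median difference was −0.049 log2 units against 0.00 for all genes. An absolute difference of at least 0.5 was found in 3 of them, 3.30%, and in 3.96% of all genes.

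NuRD partners, and those of CHD4 in the ChAHP complex with ADNP and heterochromatin protein, had 14 of 18 members measured, 1 wholly above, 3 wholly below and a median of −0.037. The paralogous NuRD scaffold subunits GATAD2B and GATAD2A had values of opposite sign. GATAD2B was at 0.54, 0.48 and 0.34 with CDH26 and at 0.17 and −0.17 in the controls, a difference of 0.45 ± 0.13 (SE; limma, adjusted p = 0.626). GATAD2A was at −0.27, −0.35 and −0.16 with CDH26 and at −0.086 and 0.086 in the controls, a difference of −0.26 ± 0.085 (limma, adjusted p = 0.626). Both separated the groups without overlap, as their choice by the smallest p of the list makes likely, and neither passed the adjusted threshold. The GATAD2B difference was 0.28 without control clone 2 and that of GATAD2A was −0.17 without control clone 2.

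SWI/SNF subunits, of the other large family of remodellers that open chromatin, had 13 of 28 measured, 1 wholly above, 3 wholly below and a median of −0.080. SS18L1 and BCL7B, accessory subunits, each differed by −0.14, with SE of 0.057 and 0.063 (limma, adjusted p = 0.626 for each). BCL7B was at −0.078 without control clone 2. Of ISWI subunits, which space nucleosomes, 3 of 11 were measured, BPTF, CHRAC1 and RSF1, and 0 stood apart in either direction. The helicase motors of SWI/SNF and ISWI were not among the genes analysed, so these counts cover other subunits only. BPTF, the reader subunit of the NURF complex, was at 0.039 ± 0.054 and CHRAC1, a histone-fold subunit, at −0.054 ± 0.076 (limma, adjusted p = 0.782 and 0.787).

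The INO80, SRCAP and TIP60 complexes, which exchange or acetylate histones, were the best covered. Of 27 of 29 members measured, 5 lay wholly above and 6 wholly below, 3 passed the unadjusted threshold in each direction, and the median was −0.052. INO80B, a subunit of the INO80 complex, was at 0.71, 0.80 and 0.56 with CDH26 and at −0.065 and 0.065 in the controls. Its difference of 0.69 ± 0.092 (SE; limma, adjusted p = 0.626) was the largest of any remodeller subunit in the lists after CHD7. EPC1, a scaffold of the TIP60 acetyltransferase complex, was at −0.48, −0.31 and −0.29 with CDH26 and at −0.079 and 0.079 in the controls, a difference of −0.36 ± 0.086 (limma, adjusted p = 0.626).

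Among other SNF2 helicases, 6 of 16 measured, 1 lay wholly below and 0 above, with a median of −0.032. RAD54L2 was at −0.41, −0.39 and −0.27 with CDH26 and at 0.076 and −0.076 in the controls, a difference of −0.36 ± 0.071 (SE; limma, adjusted p = 0.626). CHD1L, a DNA-repair remodeller named for its likeness to CHD1 but lacking chromodomains, was at 0.44, 0.56 and 0.44 with CDH26 and at 0.45 and −0.45 in the controls. As in CHD9, control clone 2 stood apart and control clone 1 lay among the CDH26 clones. The CHD1L difference of 0.48 ± 0.30 (limma, adjusted p = 0.626) was 0.93 once control clone 1 was left out and 0.030 once control clone 2 was.

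Enzymes of histone H3 lysine 4 methylation and their partners, which write or erase the mark found at CHD7-bound enhancers and at promoters, had 16 of 19 measured. Of these 2 lay wholly above and 3 wholly below, with a median of −0.041. KMT2D, the methyltransferase of enhancers whose loss causes Kabuki syndrome, was at −0.34, −0.24 and −0.31 with CDH26 and at 0.065 and −0.065 in the controls. WDR5, a core subunit shared by these enzymes that also binds CHD8, was at −0.33, −0.34 and −0.19 with CDH26 and at −0.024 and 0.024 in the controls. The differences were −0.30 ± 0.056 and −0.29 ± 0.060 (SE), with an adjusted p of 0.626 from limma for each. Both genes separated the groups, as their choice by the smallest p of the list makes likely, but did not pass the adjusted threshold.

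Genes linked to CHD7 as binding partners or targets in development had 12 of 17 measured, 1 wholly above, 0 wholly below and a median of −0.052. That one was SOX2, a pluripotency and foregut factor that can bind CHD7, at 1.13, 1.46 and 1.32 with CDH26. Its control clones were at 1.02 and −1.02, so control clone 1 lay just under the CDH26 clones and control clone 2 far below. The SOX2 difference was 1.30 ± 0.68 (SE; limma, adjusted p = 0.626), or 2.33 without control clone 1 and 0.28 without control clone 2. TBX1, a pharyngeal T-box factor, was at −0.82, −0.47 and −0.021 with CDH26 and at −0.11 and 0.11 in the controls, and overlapped (−0.44 ± 0.27; limma, adjusted p = 0.626). Without CDH26 clone 1 TBX1 was at −0.24. SOX9, named after its values were seen, split the control clones the other way, at −1.08 and 1.08, with all CDH26 clones between them.

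**Figure D5:**
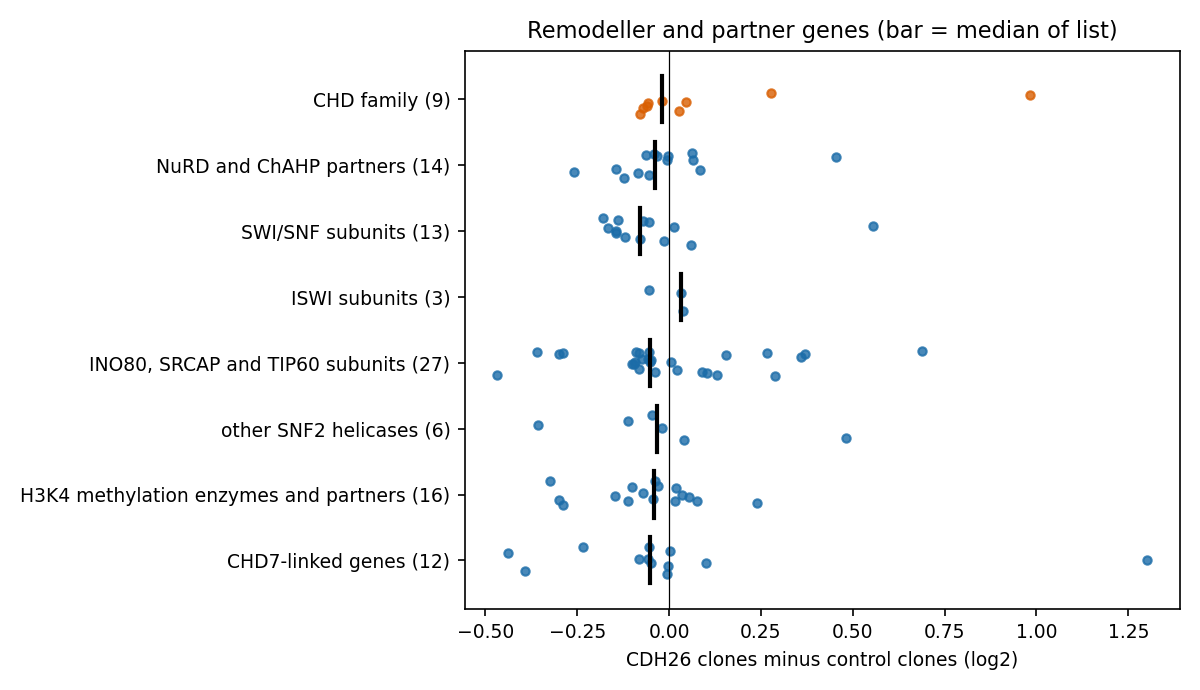
Difference between CDH26 and control clones in log2 units (horizontal axis) for each measured gene of the CHD family (orange) and of 7 lists of other remodellers and partners (blue), with the number measured in brackets and a black bar at the list median. Medians lie between −0.080 and 0.032, and the genes furthest to the right are SOX2 at 1.30 and CHD7 at 0.98.

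Lists of basal squamous, fibroblast and mesenchymal, leukocyte and endothelial markers were read beside CHD7, and none of their genes passed the adjusted threshold in limma. Over all genes 8.98% lay wholly above the controls and 9.93% wholly below. Of 15 basal squamous markers 6 were measured, and 3 lay wholly above the controls and 0 below. Their median stood at 0.46, 0.57 and 0.50 with CDH26 and at 0.19 and −0.19 in the controls; the basal keratin KRT14 differed by 2.72 ± 0.43 (SE) and SFN, 14-3-3 sigma, by 0.63 ± 0.11 (limma, adjusted p = 0.626 for each). Of 14 fibroblast and mesenchymal markers 8 were measured, 1 wholly above and 0 below, with a list median between 0.0011 and 0.049 in the CDH26 clones and at −0.017 and 0.017 in the controls. The proteoglycan LUM differed by 1.59 ± 0.42 and S100A4 by 0.11 ± 0.066 (limma, adjusted p = 0.626 for each; S100A4 0.018 without control clone 2 and 0.20 without control clone 1).

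Of 12 leukocyte markers 4 were measured, 1 wholly above and 1 below, with a list median between 0.0056 and 0.055 in the CDH26 clones and at 0.011 and −0.011 in the controls. The lysosomal protein CD68 differed by 1.07 ± 0.33 (SE) and CD14 by −0.041 ± 0.035 (limma, adjusted p = 0.626 and 0.668); CD14 was at −0.015 without CDH26 clone 3. Of 10 endothelial markers 6 were measured and all 6 overlapped, with a list median between −0.053 and 0.028 in the CDH26 clones. ESAM was at −0.26 ± 0.15 and EMCN at 0.036 ± 0.029 (limma, adjusted p = 0.626 and 0.652), and without control clone 2 or 1 in turn ESAM was at −0.033 and −0.49 and EMCN at 0.073 and 0.00. Centred values do not show which of these markers are absent, and their part in the CHD7 difference was not tested.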

How the data were processed

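The authors' deposited table held log values, read here as log2, for 44607 probe sets and 5 arrays; per the submitters' processing notes they came from Affymetrix Expression Console. Its settings and the build were not given in the sources used here. Each row was centred on the control mean (largest absolute sum of the control values 1.0e-06). The platform annotation named 15835 probe sets with 1 gene each and left 28772 unnamed; probe sets were averaged per gene, giving 14812 genes. No filter on low values was possible. All 15835 names matched RefSeq's current symbols.

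Groups came from the labels. Differences are CDH26 minus control means. SE of CHD, neighbouring and similar genes use each gene's own spread; others are limma's. limma 3.58.1 in R 4.3.3 (lmFit, eBayes, two-sided, group only, prior degrees of freedom 0.885) gave p-values adjusted over all genes. Over all genes 0 passed 0.05, and 1113 had an unadjusted p under 0.05. In a simulation of 14812 genes, the adjusted threshold was passed by 66 of 100 planted differences of 1 log2 unit. It was passed by 97 of 100 planted differences of 3, and by 10 of 14612 genes without one. Planted changes ease the adjusted threshold, so these shares do not give the power in the measured clones. In those clones CDH26, at a difference of 2.84, did not pass (limma, adjusted p = 0.25). Named were CDH26, all CHD genes, the 2 genes of each list with the smallest p, the 6 closest to CHD7 and 2 neighbours on each side. Members and lists were chosen with earlier results of these data known. Alternatives were each clone left out, array medians subtracted, natural logarithms, median over clones, trend and robust variance, array weights, a threshold of 0.1, genes without ties, and a replicate block. Figures used matplotlib 3.10.9.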

Additional observations from a re-analysis of the deposited data

How the results depend on the processing

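The direction of CHD7 could not turn under any alternative run, because each of its CDH26 clones lay above both controls. Its difference was 0.90 to 1.07 with clones left out, 1.42 if the values are natural logarithms and 0.96 with the replicate block. Each CHD gene has 1 probe set, so no single-probe-set alternative existed. Clone numbers name clones and are not stated to pair them; deviations of same-numbered clones correlated at −0.198 and −0.205 over genes, and the block left the count of list genes called at 0. That count was also 0 under each alternative that kept both control clones. With all clones and all genes a count of 0 says nothing of stability, since CDH26 itself did not pass the adjusted threshold there. Among genes without ties CDH26 passed (limma, adjusted p = 0.0106) and 0 of 57 list genes did. With both control clones kept, 8 to 17 of the 91 list genes, or 11 of 57 without ties, had an unadjusted p under 0.05. Without control clone 1 or 2 only 1 control remained, so no count of genes passing a p threshold is given for those fits. The count of CHD genes wholly above was 1 to 4 with clones left out (4 without control clone 1, where 25.9% of all genes were) and wholly below 2 to 4 (4 without control clone 2, 25.7%). Of the other CHD genes, 9 values turned sign, in CHD2, CHD3, CHD5, CHD6 and CHD9. Subtracting array medians could change nothing, as each was 0.

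With clones left out, list medians ran from −0.070 to −0.0091 for NuRD and ChAHP partners, −0.13 to 0.013 for SWI/SNF, −0.059 to 0.11 for ISWI, −0.060 to 0.010 for INO80, SRCAP and TIP60, −0.12 to 0.058 for other SNF2 helicases, −0.093 to −0.0034 for H3K4 enzymes and −0.067 to −0.0018 for CHD7-linked genes. Without control clone 1 the medians of SWI/SNF, INO80 and other SNF2 genes turned positive, without control clone 2 that of ISWI turned negative, and without CDH26 clone 1 that of other SNF2 genes was 0.044. Among genes without ties, an alternative chosen after seeing the data, medians were −0.063 for NuRD and ChAHP, −0.12 for SWI/SNF and −0.16 for CHD7-linked genes, over fewer genes, and ISWI was at −0.0075. BPTF was at −0.034 without control clone 2 and CHRAC1 at 0.041 without control clone 1 and −0.15 without control clone 2. By Pearson correlation among the 2094 genes of at least 0.5 times the range of CHD7, which hold all 6 of the genes closest by distance, 2 of the first 6 were shared; by distance among genes without ties all 6 were. Centred values hold no signal over background, so no limit from brightness can be given.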
